A study of Homo sapiens with 6 samples.

Results

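Intermediate filament genes were examined in the human embryonic stem cell line H1 at day 2 of hematopoietic differentiation with and without deletion of SNAI1. The 10 genes were taken by symbol from the deposited tables, out of 37803 symbols found in both. They were the keratin genes KRT7, KRT8, KRT18, KRT19, KRT23 and KRT10, with VIM (vimentin), NES (nestin), DES (desmin) and LMNA (lamin A/C). All 10 were listed in both tables.

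Wild-type cells (WT, n = 2) were compared with knockout cells whose titles carry different leading numbers, treated here as the groups SNAI1_KO_1 (n = 2) and SNAI1_KO_2 (n = 2). All groups received activin A and BMP4, at 40 and 50 ng/ml per the labels, while the methods of the study give these doses in the opposite order. The study describes a pair of CRISPR/Cas9 frameshift lines for each deleted gene, but the labels do not say whether the leading number marks a line. Each deposited table holds 1 library of each group, and levels are given as FPKM, fragments scaled by transcript length and by mapped fragments. The labels do not say whether libraries of a group came from separate cultures, so p-values measure only the spread between these libraries.

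Intermediate filaments are cytoplasmic or nuclear fibres built from one large gene family. Keratins are obligate pairs of a type I chain (KRT10, KRT18, KRT19, KRT23) and a type II chain (KRT7, KRT8), and KRT8 with KRT18 is the pair typical of simple epithelia and of early embryonic epithelium. Vimentin and desmin are type III proteins that can form filaments from a single kind of chain, vimentin in mesenchymal cells and desmin in muscle. Nestin is a large protein of progenitor cells that assembles with vimentin, and lamin A/C lines the inner nuclear membrane. SNAI1 is a zinc-finger repressor best known for switching off epithelial genes when epithelial cells become mesenchymal, a switch in which keratins classically give way to vimentin.

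KRT8 and KRT18 are neighbours on chromosome 12 with 0 protein-coding genes between them, and KRT7 lies 23 protein-coding genes from KRT8. KRT19, KRT23 and KRT10 lie on chromosome 17, NES and LMNA on chromosome 1, VIM on chromosome 10 and DES on chromosome 2. Many near-copies of KRT8 and KRT18 are scattered over other chromosomes, and they bear on what a read count can say. In GENCODE release 29, 45.5% of the 1487 stretches of 50 bases in the KRT8 coding sequence occurred unchanged in a KRT8 pseudogene. The share was 38.7% of 1244 stretches for KRT18 and 2.08% of 1154 for KRT19. Coding bases 301 to 360 of KRT18 are shown beside the matching stretch of a pseudogene on chromosome 5, with the 1 base that differs in capitals.
KRT18: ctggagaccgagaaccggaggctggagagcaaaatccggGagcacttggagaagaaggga
KRT18P16: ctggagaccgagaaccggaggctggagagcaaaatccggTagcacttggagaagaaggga

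Because KRT8 and VIM moved in opposite directions, 250 bases before a RefSeq start of each are shown on the gene's own strand. The KRT8 bases are chr12:52926470-52926719 on the minus strand of GRCh38.p14, within an intron of longer KRT8 transcripts, and the VIM bases are chr10:17227991-17228240 on the plus strand, within an intron of VIM-AS1. Both genes have further annotated starts, and the files do not tell which start was used.
KRT8: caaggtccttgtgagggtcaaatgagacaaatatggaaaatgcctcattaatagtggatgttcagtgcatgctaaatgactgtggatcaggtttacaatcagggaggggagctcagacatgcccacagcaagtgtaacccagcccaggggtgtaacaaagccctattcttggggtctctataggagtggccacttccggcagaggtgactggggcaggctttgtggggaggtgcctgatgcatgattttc
VIM: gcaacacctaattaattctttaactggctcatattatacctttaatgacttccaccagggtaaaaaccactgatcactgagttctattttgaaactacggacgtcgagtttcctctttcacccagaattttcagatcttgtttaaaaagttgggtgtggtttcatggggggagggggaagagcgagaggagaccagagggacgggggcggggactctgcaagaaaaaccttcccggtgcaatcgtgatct

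The RefSeq promoter table (250 bases before to 50 after a start) held windows for 5 of the 10 genes, KRT8, VIM, KRT10, NES and LMNA. They were searched on both strands for CAGGTG, the E-box that SNAI1-family proteins bind, and for GCCNNNGGC, the palindromic motif of AP-2 factors such as TFAP2A. The windows of KRT8, VIM, KRT10 and NES held neither. LMNA, with 3 windows, held GCCNNNGGC in each of them and 1 CAGGTG, 13 to 8 bases before the start of the last. Over all 35116 windows, 20.6% held CAGGTG and 23.2% held GCCNNNGGC.

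The state of the libraries was examined first. FPKM summed to between 603399 and 633851 per library, between 13553 and 14063 symbols reached 1 FPKM, and absolute depth is unknown. SNAI1 mRNA stood at 37.1 and 36.4 FPKM in WT, 51.6 and 47.8 in SNAI1_KO_1, and 68.6 and 55 in SNAI1_KO_2 (first and second table). It was higher by 0.58 ± 0.0744 (SE) on the log2 scale (limma, adjusted p 0.00461, or 0.0761 without the table as a block). Frameshift alleles can still be transcribed, so this level is no check of the genotype, and directions are those of the libraries as labelled. Of the 7 primitive streak and mesoderm markers found in both tables, all were tested, 1 was higher (T, brachyury) and 4 were lower in the knockout libraries, and their summed level was 1382 and 1359 FPKM in WT and 1002 to 1101 in the knockout libraries. APLNR carried that difference, and without it the sums were 760.9 and 786.7 FPKM in WT and 753 to 857.7 in the knockout libraries. In those sums T rose from 17.8 and 38.7 FPKM in WT to between 129.6 and 251.3. EOMES fell from 194.4 and 204.3 FPKM to between 103.8 and 132.2, and MESP1 and PDGFRA were also lower. The summed level of 6 pluripotency markers was 630.6 and 740.1 FPKM in WT and 857.8 to 1167 in the knockout libraries, with 3 of the 6 higher and 0 lower, and POU5F1 made up most of it. Beside these marker calls, 15.8% of all genes tested were higher and 15.4% lower. In bulk RNA, fewer cells of a type and less RNA per cell cannot be told apart.

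To ask how the filament genes differed by genotype, both knockout groups were set against WT. Transcripts of the simple epithelial keratins KRT8, KRT18 and KRT19 rose 1.9 to 3.46-fold, NES rose 1.34-fold and VIM fell to 0.331 of its WT level. KRT10 and LMNA did not pass the test, and KRT7, DES and KRT23 were too low to be tested. Of the 7 genes tested (mean FPKM of at least 1), 4 were thus higher, 1 was lower and 2 were not called. Across all 13909 genes tested, 31.3% passed the threshold of 0.05, 15.8% higher and 15.4% lower. The same 4 genes were higher and the same 1 was lower in each knockout group taken alone, where 23.9% of all genes were called for SNAI1_KO_1 and 25.5% for SNAI1_KO_2. These comparisons share the WT libraries. The median log2 difference of the 7 genes was 0.42, beside -0.05 over all genes tested.

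KRT8, the type II chain of the simple epithelial pair, was the most abundant filament transcript of the knockout libraries. In the first table WT had 397.6 FPKM, SNAI1_KO_1 had 1276 and SNAI1_KO_2 had 1202, and in the second the values were 440.5, 1191 and 1355 in the same order of groups. All 4 knockout libraries lay above both WT libraries, as they did for 16.9% of all genes tested. The rise was 1.58 ± 0.0643 (SE) on the log2 scale (limma, adjusted p 0.000196), and 267 of the genes tested had a larger rise. Ranked by FPKM among all symbols in both tables, KRT8 stood at 188 and 178 in WT and between 60 and 83 in the knockout libraries.

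KRT18, the type I partner of KRT8, gave 197.9, 777.2 and 734.2 FPKM for WT, SNAI1_KO_1 and SNAI1_KO_2 of the first table, and 208, 609.9 and 705.4 for those of the second. The WT values were close together and below those of all 4 knockout libraries, as in 16.9% of all genes tested. KRT18 rose by 1.79 ± 0.0874 (SE) on the log2 scale (limma, adjusted p 0.000303), the largest rise among the 7 genes tested.

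KRT19, a small type I keratin of ducts and other simple epithelia that also pairs with KRT8, was the third most abundant keratin. The first table listed KRT19 at 158 FPKM for WT, 291.2 for SNAI1_KO_1 and 277.9 for SNAI1_KO_2, and the second at 179.1, 346.5 and 375.6. The groups did not overlap, as in 16.9% of all genes tested in this direction. The rise was smaller than that of KRT8 and KRT18 in every knockout library. KRT19 rose by 0.93 ± 0.0611 (SE) on the log2 scale (limma, adjusted p 0.000637, or 0.0348 if the block was dropped). Taken alone without the block, the groups no longer passed, with adjusted p of 0.0748 for SNAI1_KO_1 and 0.0611 for SNAI1_KO_2.

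VIM, which supplies the filament of mesenchymal cells, was the most abundant of the 10 genes in WT, at 661 FPKM in the first table and 516.7 in the second. It was at 279.7 and 136.9 FPKM in SNAI1_KO_1 and at 251.7 and 142.8 in SNAI1_KO_2. All 4 knockout libraries lay below both WT libraries, which held for 17.1% of all genes tested. On the log2 scale VIM differed by -1.60 ± 0.133 (SE; limma, adjusted p 0.00117), and 88 of the genes tested had a larger fall. The fall was deeper in the second table (-1.91 and -1.85 on the log2 scale) than in the first (-1.24 and -1.39), and VIM did not pass once the block was dropped (adjusted p 0.0613).

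NES, nestin, was measured at 75.2, 98.2 and 96.8 FPKM in WT, SNAI1_KO_1 and SNAI1_KO_2 of the first table, and at 84.7, 111.1 and 123.7 in those of the second. The groups did not overlap, as in 16.9% of all genes tested in this direction, but the step was small. NES rose by 0.42 ± 0.0581 (SE) on the log2 scale (limma, adjusted p 0.00581). It did not pass when the block was dropped (adjusted p 0.207) or when the WT library of the second table was left out (0.0657).

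KRT10, a type I keratin of differentiating epidermis, was nearly level. It lay at 24.6, 27.5 and 25.2 FPKM in the first table and at 24.4, 25.6 and 24 in the second, in the same order of groups. KRT10 differed by 0.06 on the log2 scale (95% interval -0.10 to 0.21; limma, adjusted p 0.513). Of the type I keratins tested among the 10 genes, it was the one that did not pass.

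LMNA differed more between tables than between groups. In the first table LMNA had 48 FPKM for WT, 53.3 for SNAI1_KO_1 and 48.6 for SNAI1_KO_2, while the second listed 90.2, 71 and 65.1. The knockout libraries were at or above WT in the first table and below it in the second. LMNA differed by -0.16 on the log2 scale (95% interval -0.45 to 0.13; limma, adjusted p 0.34). The direction rests on the WT library of the second table, without which the difference was 0.08 (adjusted p 0.461). Leaving out the WT library of the first table gave -0.40, which passed (adjusted p 0.0388).

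The remaining genes were near the bottom of the scale. KRT7, a type II keratin of ductal and amniotic epithelium, was at 0.334 FPKM in both WT libraries. It was at 0.832 and 1.11 in SNAI1_KO_1 and at 1.14 and 1.18 in SNAI1_KO_2, so the groups did not overlap. All 4 knockout libraries lay above both WT libraries for 16.9% of all genes tested, a share that does not cover genes this low. With the filter on low values removed, KRT7 differed by 0.63 ± 0.104 (SE) in log2(FPKM + 1), which did not pass (limma, adjusted p 0.0649). DES, the muscle type III protein, gave 0.234 and 0.349 FPKM in WT and 0.242 to 0.545 in the knockout libraries, with overlapping groups. KRT23, a type I keratin, was listed at 0 in 4 of the 6 libraries and at 0.0351 and 0.0553 FPKM in the others.

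**Figure D1:**
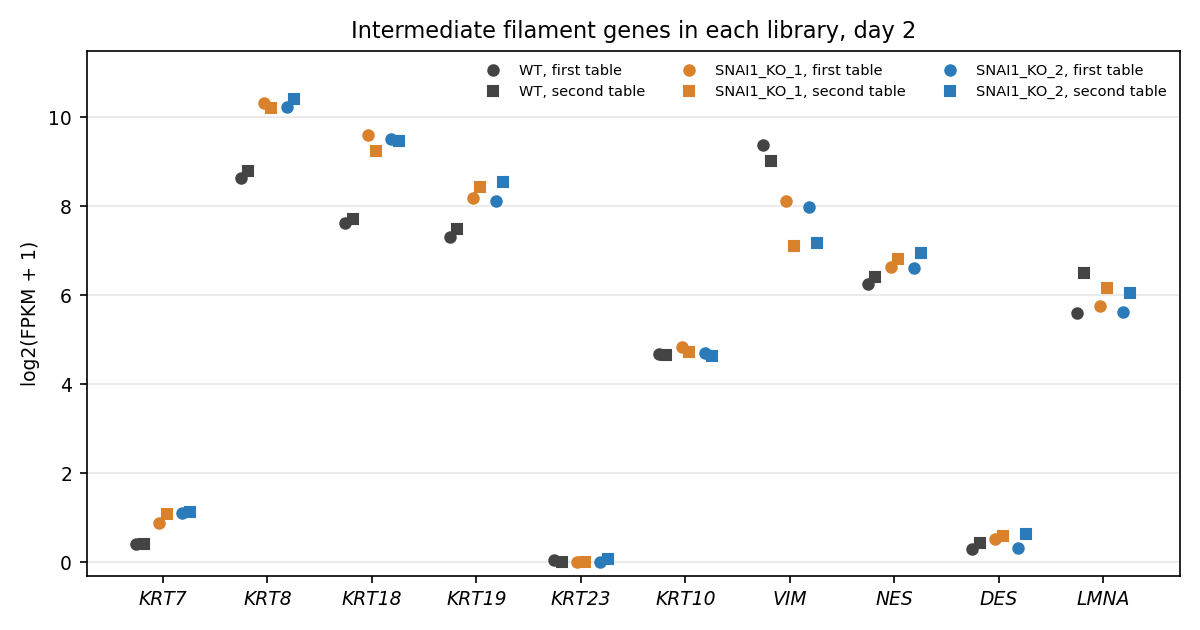
Level of each of the 10 intermediate filament genes in every library, as log2(FPKM + 1) on the vertical axis. Colours give the group (n = 2 libraries each), circles the first table and squares the second. KRT8, KRT18 and KRT19 lay higher and VIM lower in all 4 knockout libraries than in both WT libraries, while KRT10 stayed level and LMNA separated by table. Of all genes tested, 16.9% lay higher and 17.1% lower in this way.

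FPKM is scaled by transcript length, so levels can also be ordered between genes. In WT the order of levels was VIM, KRT8, KRT18 and KRT19, from 588.9 ± 102 FPKM for VIM (SD, n = 2) and 419 ± 30.3 for KRT8 to 203 ± 7.13 for KRT18 and 168.5 ± 15 for KRT19, and it was the same in both tables. NES followed with 79.96 ± 6.76 FPKM and LMNA with 69.09 ± 29.8, and these neighbours changed places between tables. In the knockout libraries KRT8 came first, with 1233 ± 60 and 1278 ± 108 FPKM in SNAI1_KO_1 and SNAI1_KO_2, then KRT18 with 693.5 ± 118 and 719.8 ± 20.3 and KRT19 with 318.9 ± 39.1 and 326.7 ± 69. VIM was the fourth, with 208.3 ± 101 and 197.3 ± 77 FPKM. In the first table KRT19 and VIM were close in the knockout libraries (291.2 beside 279.7, and 277.9 beside 251.7 FPKM), and in the second they were far apart.

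The make-up of the cytoplasmic filament transcripts differed accordingly. VIM took 43.6% and 35.5% of the summed FPKM of the 9 cytoplasmic genes in the WT libraries, and between 5.23% and 10.2% in the knockout libraries. The 6 keratins together took 51.4% and 58.6% in WT and between 86.2% and 90.2% in the knockout libraries. In the first table the ratio of keratin to VIM FPKM was 1.18 for WT, 8.48 for SNAI1_KO_1 and 8.9 for SNAI1_KO_2, and in the second it was 1.65, 15.9 and 17.2. The ratios did not overlap between WT and knockout libraries, and no test was run on them. The sum over the 9 genes was 1515 and 1454 FPKM in WT and between 2422 and 2751 in the knockout libraries, so the fall of VIM was smaller in FPKM than the rise of the keratins. KRT8, KRT18, KRT19 and VIM together made up 0.224% of all FPKM in each WT library and between 0.378% and 0.428% in the knockout libraries.

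**Figure D2:**
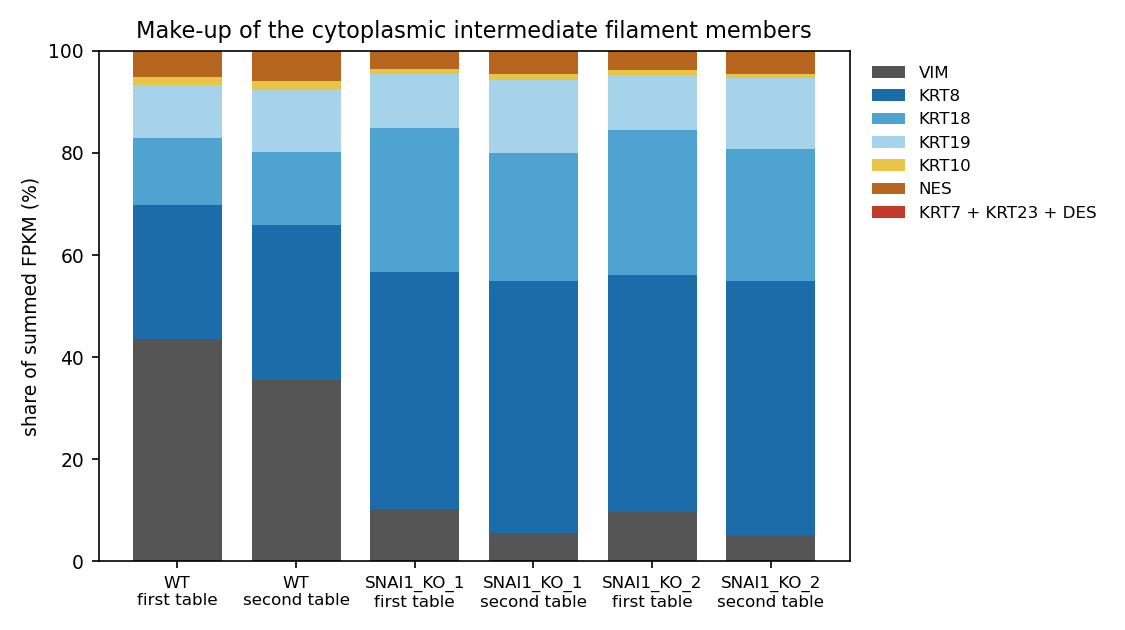
Share of summed FPKM (vertical axis, percent) taken by each cytoplasmic filament gene in each of the 6 libraries, 1 bar per library. VIM shrank from 43.6% and 35.5% in WT to at most 10.2% in the knockout libraries, and KRT8 and KRT18 took up most of the difference.

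Keratins assemble as pairs of both types, so the balance of the types was examined. Summed type I over summed type II FPKM was 0.956 and 0.934 in WT and between 0.815 and 0.862 in the knockout libraries. The balance therefore moved little while the total rose from 778.5 and 852.4 FPKM in WT to between 2174 and 2461. Within type I the weights changed, since KRT19 relative to KRT18 was 0.798 and 0.861 in WT and between 0.375 and 0.568 in the knockout libraries. KRT18 relative to KRT8 was 0.498 and 0.472 in WT, 0.609 and 0.611 in the knockout libraries of the first table, and 0.512 and 0.521 in those of the second. These ratios are descriptions, with no test.

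The knockout groups were then compared with each other. Of all 13909 genes, 0 passed the threshold in limma and 521 had an unadjusted p under 0.05, with a smallest adjusted p of 0.324. For KRT8 the log2 difference, SNAI1_KO_2 minus SNAI1_KO_1, was 0.05 (95% interval -0.14 to 0.24), and for KRT18 it was 0.06 (-0.19 to 0.32). For KRT19 the interval ran from -0.15 to 0.20, for NES from -0.10 to 0.23 and for VIM from -0.43 to 0.34. Differences within these intervals were not detectable with 2 libraries per group.

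Reads of KRT8 and KRT18 may be shared with their pseudogenes, and how the authors' counting split them is not given in the sources used here. The KRT8 pseudogenes (48 symbols in the first table and 50 in the second) summed to 7.78 and 11 FPKM in WT and to between 13.1 and 27.1 in the knockout libraries, which was 1.09% to 2.49% of the KRT8 level of the same library. The highest of them, KRT8P3, was at 2.67 and 5.11 FPKM in WT and between 9.02 and 15.7 in the knockout libraries. The KRT18 pseudogenes (54 and 68 symbols) summed to between 1.69 and 4.47 FPKM, and those of KRT19 to at most 0.474. These values follow the authors' assignment of reads, so they do not tell how many shared reads were given to KRT8 and KRT18, and the part of such reads in the rise was not tested. VIM-AS1, antisense to VIM, was at 0.489 and 0.481 FPKM in WT and between 0.804 and 1.39 in the knockout libraries, opposite in direction to VIM and at most 0.944% of it. The library kit does not mark strand, so reads of VIM and VIM-AS1 cannot be told apart where they overlap.

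Next, the rest of the intermediate filament family was examined. Of 54 keratin symbols on the list, 44 were in both tables, and 22 of these were listed at 0 in all 6 libraries. The keratins of stratified epithelium and hair were thus mostly at or near 0, and among the 38 keratins beyond the 6 already described, 35 were under 1 FPKM in every library and 1 was tested. KRT80 was at 0.117 and 0.149 FPKM in WT and at 0.768 to 1.4 in the knockout libraries. KRT20 was at 0.0572 and 0.0254 FPKM in WT, then at 0.71 to 1.18. Both lay under the filter with groups that did not overlap, and the share of 16.9% does not cover such genes. With the filter removed their adjusted p by limma was 0.0485 and 0.0499, with neither knockout group passing alone. The keratin tested was KRT17, a type I keratin of basal and stress-activated epithelium, at 0.0358 and 0.0953 FPKM in WT, 4.18 and 5.6 in SNAI1_KO_1, and 4.46 and 7.82 in SNAI1_KO_2. KRT17 rose by 2.58 ± 0.162 (SE) in log2(FPKM + 1) (limma, adjusted p 0.000552), and it passed the filter on low values only through the knockout libraries, where it was high (adjusted p 0.022 with the filter removed). KRT14 was listed at 0 in every library and KRT5 was at most 0.18 FPKM, so the basal epidermal pair was not seen with KRT17.

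Of the 51 other family genes in both tables, 10 were tested, 7 of them higher, 2 lower and 1 not called, where 15.8% of all genes tested were higher and 15.4% lower. KRT17, which entered the test through the knockout libraries, was 1 of these 7, so the count and the median lean towards higher genes. The median log2 difference of the 10 was 0.66, beside -0.05 over all genes tested. Among the type IV proteins of neurons, NEFL, the light neurofilament chain, was at 3.5 and 5.52 FPKM in WT and between 12.2 and 19.3 in the knockout libraries. NEFM, the medium chain, was at 6.09 and 6.62 FPKM in WT and between 13.3 and 15.8 in the knockout libraries. The log2 differences were 1.58 ± 0.0821 (SE) for NEFL and 1.12 ± 0.0852 for NEFM, both past the threshold (limma, adjusted p 0.000341 and 0.000904). SYNM (synemin), which joins vimentin filaments, and PRPH (peripherin), a type III protein of peripheral neurons, were also higher, by 0.65 and 0.66 on the log2 scale (limma, adjusted p 0.00914 and 0.0336), although PRPH did not pass in SNAI1_KO_1 alone (0.074). SYNM and PRPH were not followed through the alternative fits. INA, another neuronal chain, did not pass (limma, adjusted p 0.11). IFFO2, a little-studied filament family member, rose from 2.78 and 2.92 FPKM in WT to between 12.3 and 20.9, whereas its relative IFFO1 fell from 10.4 and 12.2 FPKM to between 7.3 and 9.3. The log2 differences were 2.05 ± 0.151 (SE) for IFFO2 and -0.40 ± 0.0803 for IFFO1, each past the threshold (limma, adjusted p 0.000837 and 0.0174). IFFO1 no longer passed without the block (adjusted p 0.28), or whichever of the 6 libraries was left out (0.0614 to 0.124).

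The B-type lamins, which unlike LMNA are made in nearly all cells, showed small steps. LMNB1 was between 183.4 and 259.8 FPKM and LMNB2 between 130.4 and 248.6, both far above LMNA. LMNB1 was higher by 0.19 ± 0.0436 on the log2 scale and LMNB2 differed by -0.22 ± 0.0393 (SE; limma, adjusted p 0.0257 and 0.012). The groups overlapped for both genes across the tables, but not within a table. There both knockout libraries lay above WT for LMNB1 (log2 differences of 0.136 to 0.232). For LMNB2 they lay below it (-0.234 to -0.206). LMNB1 did not pass in SNAI1_KO_2 alone (adjusted p 0.0509). LMNB2 did not pass without the block (0.806), without the variance trend (0.0751), without the WT library of the first (0.0774) or second table (0.0912), or without the SNAI1_KO_2 library of the second (0.0532). LMNA relative to the sum of LMNB1 and LMNB2 was 0.143 and 0.19 in WT and between 0.14 and 0.156 in the knockout libraries.

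Filaments are tied to desmosomes, hemidesmosomes and other cytoskeletal systems by cytolinkers, and these were examined as the partners of keratins. Of 18 cytolinkers and filament anchors, 15 were tested, of which 9 were higher, 0 lower and 6 not called, beside 15.8% higher and 15.4% lower over all genes tested. Their median log2 difference was 0.43, beside -0.05 over all genes. PPL (periplakin), a plakin of desmosomes and of the epithelial cell cortex, rose from 2.07 and 2.85 FPKM in WT to between 14.7 and 22.2, a step of 2.43 ± 0.084 (SE) on the log2 scale (limma, adjusted p 0.000181). PKP2 (plakophilin 2), a desmosomal plaque protein, rose from 4.08 and 5.17 FPKM to between 17.3 and 21.1, a step of 1.81 (adjusted p 0.000765). EPPK1 (epiplakin), which binds keratin networks, was at 0.632 and 1.15 FPKM in WT and between 3.39 and 5.14 in the knockout libraries, a step of 1.46 (adjusted p 0.00099). EPPK1 and ITGB4 had a WT mean under 1 FPKM and entered the test through the knockout libraries, so the count and the median lean towards higher genes. With the filter removed the adjusted p of EPPK1 was 0.0228. Under the filter, PKP1 and SYNC lay below both WT libraries in all 4 knockout libraries and EVPL lay above them. None of these passed with the filter removed (limma, adjusted p 0.171, 0.193 and 0.0742). ITGA6, the hemidesmosomal integrin chain, rose by 0.95 on the log2 scale (adjusted p 0.0145) and did not pass without the block (0.0808), without the filter (0.0982), without the WT library of the first (0.126) or second table (0.0528), or without the SNAI1_KO_2 library of the second (0.0639). DSP (desmoplakin), the main anchor of keratins at desmosomes, was at 17.8 and 17.5 FPKM in WT and between 26.4 and 30.5 in the knockout libraries (adjusted p 0.00218). PLEC (plectin), a general cytolinker at 24.5 to 35.3 FPKM, did not pass (adjusted p 0.188).

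The partners of lamins were examined next. Of 16 lamin partners and processing enzymes tested, 1 was higher, 1 lower and 14 were not called, beside 31.3% called over all genes tested. The median log2 difference was -0.02, and -0.05 over all genes. LBR, the lamin B receptor, was at 55.2 and 42.3 FPKM in WT and between 61.9 and 79.9 in the knockout libraries, higher by 0.55 on the log2 scale (limma, adjusted p 0.00314). LEMD2, an inner nuclear membrane protein, differed by -0.30 (adjusted p 0.0142). Without the block neither passed (adjusted p 0.156 for LBR and 0.685 for LEMD2), and LEMD2 did not pass whichever of the 6 libraries was left out (0.0535 to 0.0935).

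Transcription and splicing factors that act on keratin or epithelial genes were set beside the keratins. Of 15 such regulators 14 were tested, of which 9 were higher, 1 lower and 4 not called, beside 15.8% higher and 15.4% lower over all genes tested. In SNAI1_KO_1 alone the count was the same, and in SNAI1_KO_2 alone 7 were higher, 1 lower and 6 not called. The median log2 difference was 0.71. GRHL1, GRHL3 and OVOL1 had a WT mean under 1 FPKM and entered the test through the knockout libraries, so the count and the median lean towards higher genes. With the filter removed, the adjusted p was 0.0229 for GRHL3 and 0.0921 for OVOL1. GRHL3, a grainyhead factor of surface epithelium, rose from 0.858 and 1.02 FPKM in WT to between 5.9 and 7.92, a log2 difference of 2.04 ± 0.14 (SE). TFAP2A, the AP-2 factor of surface ectoderm, rose from 3.22 and 5.36 FPKM to between 14.3 and 24.1, a log2 difference of 1.82 ± 0.116. ESRP2, which directs epithelial splicing, and OVOL2, a repressor of mesenchymal genes, were higher by 1.46 and 1.41. Adjusted p for these factors lay between 0.000584 and 0.000965 by limma. GATA3, a zinc-finger factor of trophoblast and surface ectoderm, was lower, from 23.1 and 37.3 FPKM in WT to between 11.6 and 24, a step of -0.87 on the log2 scale (limma, adjusted p 0.00281, or 0.234 without the block). The epidermal master regulator TP63 was at most 0.119 FPKM in every library.

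**Figure D3:**
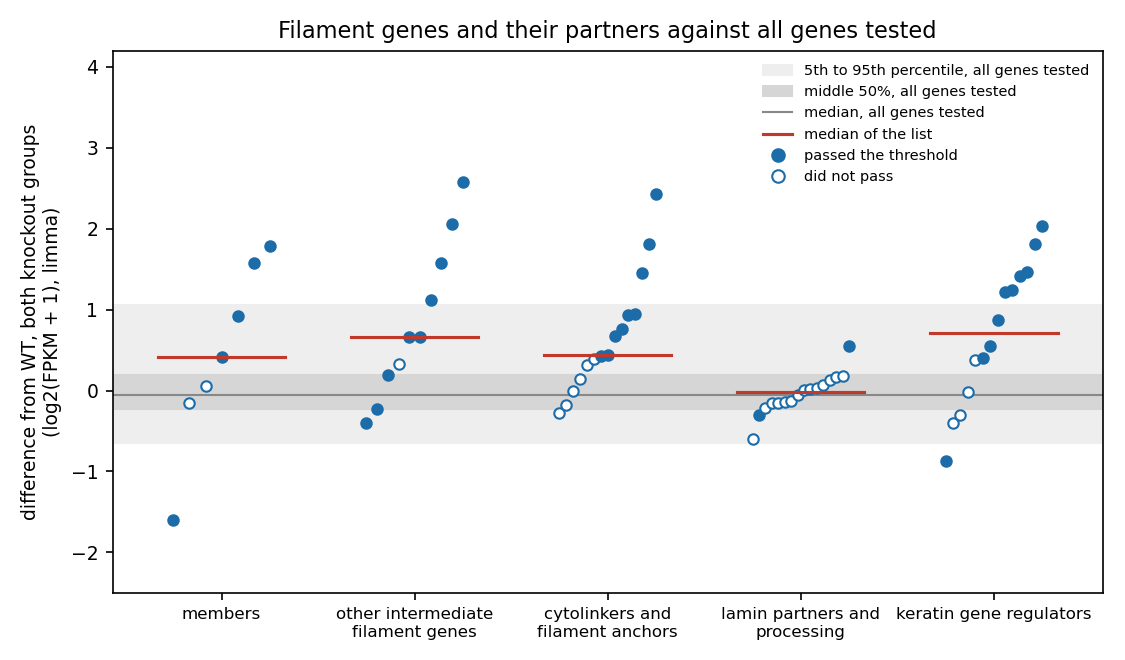
Difference of both knockout groups from WT in log2(FPKM + 1) by limma (vertical axis) for each tested gene of the 10 filament genes (members), the other family genes, cytolinkers, lamin partners and keratin gene regulators. Filled points passed the threshold, red lines mark list medians, and grey bands show all 13909 genes. Lamin partners lie around 0, at a median of -0.02, while the cytolinkers hold 9 higher and 0 lower calls among 15 tested. Over all genes tested, 15.8% were higher and 15.4% lower. Genes with a WT mean under 1 FPKM, which entered through the knockout libraries, are included.

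Keratins are also made by other cell types that can arise in such cultures, so their markers were measured. Of 8 trophoblast markers 0 were tested, 5 (GCM1, ELF5, VGLL1, PSG1 and XAGE2) were under 0.05 FPKM in every library, and the list summed to between 0.306 and 2.99 FPKM. Without CYP19A1, the sums were 0.251 and 0.143 FPKM in WT and 0.335 to 1.18 in the knockout libraries. HLA-G made up most of these smaller sums, and it did not pass with the filter removed (limma, adjusted p 0.295). Of 11 amnion and surface ectoderm markers 4 were tested, TFAP2A, GABRP and IGFBP3 higher and GATA3 lower, and the list summed to 29.2 and 44.8 FPKM in WT and to between 52.7 and 71.5 in the knockout libraries. IGFBP3 carried most of that difference, and without it the sums were 28.4 and 44.3 FPKM in WT and 28.5 to 50.5 in the knockout libraries. GABRP and IGFBP3 had a WT mean under 1 FPKM and entered the test through the knockout libraries (adjusted p 0.0919 and 0.013 with the filter removed), so these calls lean towards higher genes. In that list ISL1, which was under the filter, was at 1.82 and 1.04 FPKM in WT and at most 0.597 in the knockout libraries. With the filter removed ISL1 was lower by -0.787 on the log2 scale (limma, adjusted p 0.0475), with neither knockout group passing alone (0.0725 and 0.0715). TFAP2B and KRT14 were under 0.05 FPKM in every library. Of 5 endoderm markers 2 were higher (SOX17 and FOXA1) and 2 lower (FOXA2 and CER1), with sums of 3334 and 2821 FPKM in WT and 1269 to 1923 in the knockout libraries. CER1 made up nearly all of these sums, and without it they were 72.1, 141.1 and 126.5 FPKM in WT, SNAI1_KO_1 and SNAI1_KO_2 of the first table and 270.6, 353 and 292.1 in those of the second. FOXA1, with a WT mean under 1 FPKM, had an adjusted p of 0.104 by limma with the filter removed. It passed in neither knockout group alone (limma, adjusted p 0.0738 and 0.0685). SOX17 did not pass in SNAI1_KO_2 alone (0.0855), nor FOXA2 in SNAI1_KO_1 alone (0.0633). Beside the marker calls for both groups together, 15.8% of all genes tested were higher and 15.4% lower. Of 4 neural markers 1 was tested and 0 were called. The one tested, OTX2, was at 79.6 and 93.2 FPKM in WT and at 50.2 to 73.7 in the knockout libraries (limma, adjusted p 0.0929). PAX6 was at 1.29 and 2.38 FPKM in WT and at most 0.184 in the knockout libraries, and did not pass with the filter removed (limma, adjusted p 0.0522). ZIC1 was between 0.222 and 0.505 FPKM, and SOX1 was at most 0.0169. The part of neural cells in the rise of NEFL and NEFM was not tested. The part of amnion, surface ectoderm, endoderm or pluripotent cells in the keratin and VIM results was not tested.

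Finally, the genes whose 4 within-table differences from WT lay nearest to those of KRT8, KRT18 and VIM were listed by Euclidean distance on the log2 scale, over all 13909 genes. For KRT8 they were PERP (0.0628), a membrane protein of desmosomes, RGL3 (0.0828) and NEFL (0.127). For KRT18 they were HTR7 (0.118), a serotonin receptor, SLC2A3 (0.143), a glucose transporter, and PAK6 (0.172), a kinase. KRT18 was the gene ranked 94 by nearness to KRT8, at a distance of 0.449. For VIM they were KLHL29 (0.218) and the homeobox genes IRX5 (0.22) and LHX1 (0.234). LHX1 was lower by -1.31, -1.35, -1.69 and -1.84 on the log2 scale in SNAI1_KO_1 and SNAI1_KO_2 of the first and then the second table, beside -1.24, -1.39, -1.91 and -1.85 for VIM. These are likenesses over 4 differences that share 2 WT libraries.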

How the data were processed

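RNA-seq was performed on H1 cells at day 2 of hematopoietic differentiation, from 2 ug of total RNA per library. The authors deposited FPKM values per gene symbol in 2 tables. The unit is named in the second table, while the first does not name it. The submitters' processing notes name BWA, Bowtie, RSEM and the build hg19 without roles, and the methods name the companies BGI and Novogene as the places of sequencing. Sequences are from RefSeq (GRCh38.p14) and GENCODE release 29, and no coordinates were converted. Other per-sample columns numbered 0.

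Duplicated symbols (94 in the first and 340 in the second table) were dropped, and 37803 remained. Those whose mean over the libraries reached 1 FPKM (13909) were tested on log2(FPKM + 1), which understates the change of low genes, in R 4.3.3 with limma 3.58.1, by a model of means for the 3 groups, the table as a block and a mean-variance trend (2 residual and 3.34 prior degrees of freedom). Two-sided p-values were corrected by Benjamini-Hochberg over the 13909 genes. The tables were normalized separately, so the model compared groups only within a table. Statements on overlap of groups, and means with their SD, take both tables together. Pairing comes from the shared table. Differences between tables correlated between groups (r = 0.616, 0.666 and 0.676), taken across genes that are not independent of each other.

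The filament genes and gene lists were chosen with earlier results of these data known. From each further list, up to 4 rises and 4 falls that passed the threshold with 1 sign in all 4 within-table differences were named by size. The 3 genes nearest in pattern to KRT8, KRT18 and VIM were also named. DSP, PLEC, SYNM, PRPH, INA, LMNB1, KRT20, KRT80, ITGB4, GRHL1, OVOL1 and the marker genes given with values were added after their values were seen, as were the marker sums without the gene that differed most in FPKM. SYNE2 is listed more than once and was left out. Depth is unknown, so no counting interval is given, and count tests were not run.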

Additional observations from a re-analysis of the deposited data

How the results depend on the processing

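The fits were repeated without the table block, with a pseudocount of 0.1 or 10, with a minimum mean of 5 FPKM or no minimum, after quantile normalization or median-ratio scaling, without the variance trend, with only the groups compared, and without each library in turn. The ratios were repeated with all keratins summed. The alternatives were followed for the 10 filament genes, SNAI1 and the genes named by size. Apart from the fit without the filter where its values are given above, they were not followed for SYNM, PRPH, LMNB1, DSP and OVOL1. Nor were they followed for the marker genes other than TFAP2A and GATA3. How far the calls of all these genes hold is not known. For both knockout groups together, fitting only the groups compared is the reported fit. KRT8 and KRT18 kept their direction and passed under every alternative run, with log2 differences of 1.52 to 1.65 and of 1.65 to 1.93 for both groups together.

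Without the replicate block, the calls numbered 1065 with both groups together, 576 in SNAI1_KO_1 and 698 in SNAI1_KO_2, beside 4348, 3327 and 3549 with it, and 71.9%, 75.5% and 74.6% of them were higher, beside 50.6%, 54.4% and 53.0%. Without the filter, 2139, 1008 and 1216 were called. Leaving out 1 library, the counts ran from 1728 to 2840, 962 to 2379 and 1135 to 2693, and with both groups together each of the 6 libraries lowered the count by over 1.5 times. Median-ratio scaling called 4112 genes for both groups, 59% of them higher. The causes were not tested, and where 1 library was left out the fit also had fewer libraries. Of the 10 filament genes, dropping the block ended the calls of VIM and NES in all 3 comparisons (adjusted p 0.0613, 0.122 and 0.105 for VIM and 0.207, 0.382 and 0.273 for NES, by limma) and those of KRT19 in each knockout group alone.

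Leaving out 1 library, the LMNA log2 difference ran from -0.40 to 0.082 for the groups together, from -0.338 to 0.15 in SNAI1_KO_1 and from -0.465 to 0.018 in SNAI1_KO_2, positive without the WT library of the second table. Without the SNAI1_KO_1 library of that table it was 0.03 in SNAI1_KO_1. KRT10 in SNAI1_KO_2 ran from -0.031 to 0.042, with -0.001 without the SNAI1_KO_2 library of the first table and the lowest without its WT library. None of the values with a turned sign passed. Without the filter, VIM and NES did not pass for SNAI1_KO_1 (adjusted p 0.0546 and 0.0794 by limma), nor NES for SNAI1_KO_2 (0.0613). Leaving out 1 library, the adjusted p of NES ran from 0.0242 to 0.119 for SNAI1_KO_1 and from 0.025 to 0.0699 for SNAI1_KO_2. Of 581 alternatives for single genes and ratios, 522 left the call as it was, 47 removed it, 2 added one, 6 turned a sign and 4 moved an untested value. Unknown depth limits what can be said of KRT7, DES and KRT23.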
